A study of Mus musculus with 8 samples.

Results

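Prss56, Mfrp, Tmem98, Myrf and C1qtnf5 are genes tied to the length of the eye, made mainly by Müller glia or by the retinal pigment epithelium. They were described in retinas of mice with choroidal neovascularization (CNV), in which vessels of the choroid grow towards the retina. The members were picked by symbol with their difference between knockout and control retinas already known, so that difference is given for them as a description and without a test. Of the 5 listed genes, 3 have a row among the 25477 genes of the table, namely Prss56, Tmem98 and Myrf, and Mfrp and C1qtnf5 were not analysed here. The 8 polyadenylated RNA libraries came from 2 groups of 4: KO-CNV, with the genotype given as PD-L1 knockout, and WT-CNV, with the genotype given as control. Both groups are named for CNV, and no retina without it was part of the comparison. PD-L1, the ligand that restrains immune cells through PD-1, is encoded by Cd274. The sources used here do not give the deleted part of Cd274, the strain, age and sex of the mice, the way CNV was induced or whether pigment epithelium stayed on the retina. No label ties the libraries to separate animals, so any p-value reflects variation among libraries that may be technical alone.

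The length of the eye is set by signals that pass from the neural retina through the pigment epithelium and choroid to the sclera. People with faults in PRSS56, MFRP, TMEM98 or MYRF have very short, far-sighted eyes (nanophthalmos). PRSS56 is a secreted trypsin-like serine protease of Müller glia, the radial glia that span the retina, and mice without it have short eyes. MFRP is a membrane protein with a frizzled-like domain in the pigment epithelium and ciliary body, and mice that lack it carry more Prss56 transcript in the retina. C1QTNF5, a short-chain collagen-like protein, is encoded at the same locus as MFRP. MYRF is a transcription factor anchored in the membrane of the endoplasmic reticulum that frees itself by cutting its own chain. TMEM98 binds MYRF and holds back that cut. MYRF is best known as the switch for myelin genes in oligodendrocytes, and it also works in the pigment epithelium.

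The measured genes lie on 3 chromosomes (GRCm38, the build called mm10; positions from RefSeq). Prss56 (Entrez gene 69453) spans chromosome 1, 87183102 to 87188405, on the plus strand, with 13 exons in GENCODE. Tmem98 (Entrez gene 103743) spans chromosome 11, 80810366 to 80822033, on the plus strand, with 7 exons. Myrf (Entrez gene 225908) spans chromosome 19, 10208271 to 10240777, on the minus strand, with 27 exons in its longest form. Myrf shares its chromosome with the targeted gene Cd274, at a distance of 19.12 Mb. GENCODE lists no other gene that overlaps any of the 3, so their counts are not shared with an antisense partner. RefSeq gives Mfrp and C1qtnf5 the same interval on chromosome 9, 44101770 to 44109187.

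The 250 bases before the start site of Prss56 and of Tmem98 are shown because they differ in make-up while both transcripts were higher in the KO-CNV libraries; both are from RefSeq (GRCm38.p6), plus strand, 5′ to 3′. The start site of the Prss56 stretch, most of its bases and the match marked in it lie inside the gene's span given above. Capitals mark a match to the STAT site TTCNNNGAA, the only one of the 3 motifs searched that these stretches hold.
Prss56, chr1:87183064-87183313: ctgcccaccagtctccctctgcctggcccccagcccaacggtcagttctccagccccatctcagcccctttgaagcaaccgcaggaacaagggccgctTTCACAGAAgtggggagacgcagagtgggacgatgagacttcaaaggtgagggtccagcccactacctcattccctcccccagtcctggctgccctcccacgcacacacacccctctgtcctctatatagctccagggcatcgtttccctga
Tmem98, chr11:80810116-80810365: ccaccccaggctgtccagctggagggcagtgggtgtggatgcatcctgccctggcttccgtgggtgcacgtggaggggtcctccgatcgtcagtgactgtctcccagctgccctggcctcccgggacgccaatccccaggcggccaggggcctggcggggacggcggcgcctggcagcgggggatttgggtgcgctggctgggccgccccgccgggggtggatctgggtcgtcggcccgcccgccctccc
The Prss56 stretch held 7 CG pairs at 61.2% G and C, and the Tmem98 stretch 20 CG pairs at 74.8%, where the median over 32851 RefSeq promoters was 52.4%. The Prss56 match begins at -152 from the start, and since the pattern TTCNNNGAA is its own reverse complement, it counts on both strands as 1 site. In windows of 300 bases (250 before and 50 after the start), TTCNNNGAA occurred in 8.30% of the promoters on either strand. TAATCC, the core bound by OTX2 and CRX, occurred in 7.06%, and CATGTG, a box bound by MITF, in 14.2%. Neither of these 2 motifs occurred in the Prss56 or Tmem98 window. A match is a string of letters and not a shown binding site, and no match says only that the letters are not in this window.

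Each library held 31743404 to 36438248 counts, so that 1 count is worth 0.0280 to 0.0314 CPM (counts scaled to library size with edgeR's TMM factors). Cd274 was at 0.335 ± 0.0758 CPM in KO-CNV and 4.48 ± 0.544 CPM in WT-CNV (SD, n = 4 each), and all 8 libraries carried the level their label implies. Rod markers such as rhodopsin summed to 39263 to 57126 CPM in KO-CNV and 40427 to 51141 CPM in WT-CNV, so every library was retina by its defining transcripts. Lens markers summed to 2334 CPM in KO-CNV 3, 4968 CPM in WT-CNV 2 and 1576 CPM in WT-CNV 3, against 2.83 to 39.6 CPM in the other 5 libraries. Without WT-CNV 4 the number of genes called over the whole table was 3209, in place of 430, and without any other single library it was 108 (KO-CNV 3) to 332 (KO-CNV 1).

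All 3 measured genes had a higher mean level in the KO-CNV retinas. The mean CPM ratio was 3.27 for Prss56, 2.66 for Myrf and 1.71 for Tmem98. In the edgeR fit over all genes, all 3 were among the genes called higher at an adjusted p under 0.05, a direction that 1.20% of the 16861 genes tested took (2.55% in either direction). As the members were chosen on this contrast, nothing is read from that count. Of all genes called, 203 were higher and 227 lower, and with library totals as the only scaling 207 were higher and 131 lower.

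**Figure D1:**
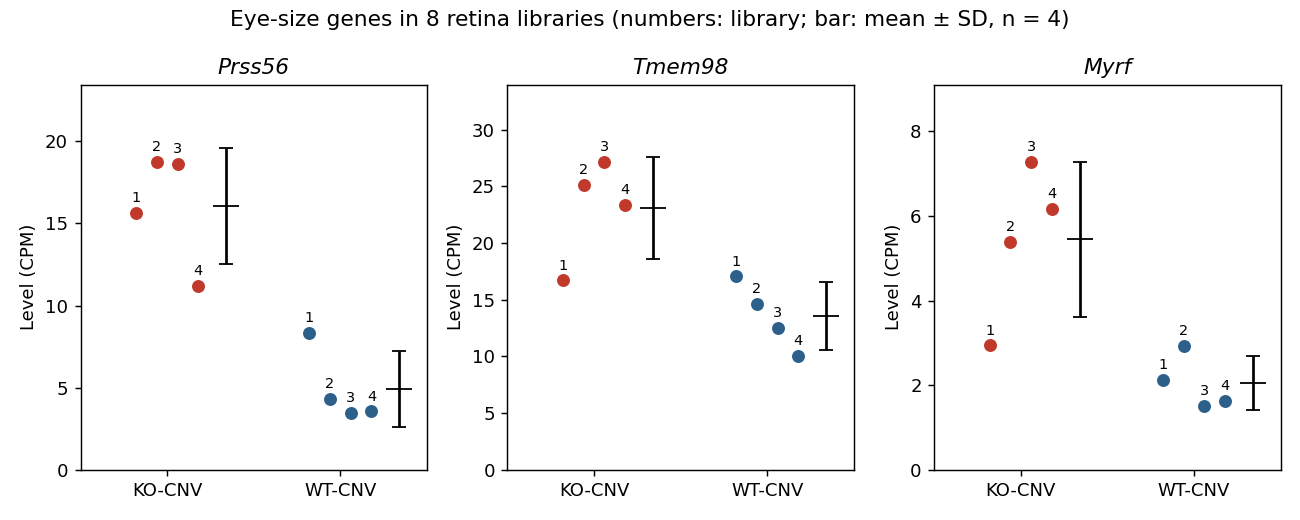
Level of each measured eye-size gene in CPM (vertical axis) in the 4 KO-CNV and 4 WT-CNV libraries. Points are libraries with their number, and bars give the mean ± SD. Prss56 and Myrf do not overlap between groups, whereas Tmem98 in KO-CNV 1 (16.7 CPM) lies just under WT-CNV 1 (17.1 CPM).

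Prss56, the protease of Müller glia, stood at 15.7, 18.7, 18.6 and 11.2 CPM in KO-CNV 1 to 4, and at 8.34, 4.30, 3.45 and 3.55 CPM in WT-CNV 1 to 4. The lowest KO-CNV library, number 4, was above the highest WT-CNV library, number 1. These levels came from 391 to 665 reads per KO-CNV library and 112 to 266 reads per WT-CNV library. The means were 16.1 ± 3.55 CPM in KO-CNV and 4.91 ± 2.32 CPM in WT-CNV (SD, n = 4 each), and the log2 fold change, KO-CNV over WT-CNV, was 1.71 (SE 0.27). Of the 16861 genes tested, 28 had a higher log2 fold change than Prss56, 68 a higher one than Myrf and 436 a higher one than Tmem98. These ranks restate the choice of the members on this contrast. Without any 1 of the libraries the log2 fold change of Prss56 stayed between 1.57 and 2.09. WT-CNV 1 stood apart from the other controls, at 8.34 CPM where they had 3.45 to 4.30 CPM.

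Tmem98, the partner that keeps MYRF uncut, stood at 16.7, 25.2, 27.2 and 23.4 CPM in KO-CNV 1 to 4, and at 17.1, 14.6, 12.5 and 10.003 CPM in WT-CNV 1 to 4. The groups touched, because KO-CNV 1 was lower than WT-CNV 1, and the other 3 KO-CNV libraries were above every WT-CNV library. The means were 23.1 ± 4.53 CPM in KO-CNV and 13.5 ± 3.01 CPM in WT-CNV (SD, n = 4 each), with a log2 fold change of 0.77 (SE 0.18). Without any 1 library it lay between 0.65 and 0.90.

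Myrf, the membrane-bound transcription factor, was the least abundant, at 2.94, 5.39, 7.28 and 6.18 CPM in KO-CNV 1 to 4, and at 2.13, 2.92, 1.51 and 1.63 CPM in WT-CNV 1 to 4. The groups did not overlap, but KO-CNV 1 and WT-CNV 2 were almost level, at 104 and 93 reads. The means were 5.45 ± 1.84 CPM in KO-CNV and 2.05 ± 0.642 CPM in WT-CNV (SD, n = 4 each), with a log2 fold change of 1.41 (SE 0.30). Without any 1 library it lay between 1.24 and 1.64. Prss56 and Myrf thus had groups that did not overlap, as did 11.0% of all genes tested, 5.19% with every KO-CNV library higher.

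Single libraries weighed differently on the 3 genes. The members were chosen on this contrast, so their calls in these and the other fits are no support for their difference. Prss56 was called in each of the 8 fits that left out 1 library. Tmem98 was called without KO-CNV 1, WT-CNV 1 or WT-CNV 4 and not without KO-CNV 2, 3 or 4 or WT-CNV 2 or 3. Myrf was called without KO-CNV 1, WT-CNV 2 or WT-CNV 4 and not without KO-CNV 2, 3 or 4 or WT-CNV 1 or 3. Without the 3 libraries rich in lens transcripts none of the 3 was called, in a fit of 3 KO-CNV against 2 WT-CNV libraries that called 15 genes of the whole table.

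Per unit of gene length the order of the levels was the same in all 8 libraries: Tmem98 highest, then Prss56, then Myrf. In FPKM, the deposited values scaled to gene length and library total, Tmem98 averaged 16.1 ± 2.83 in KO-CNV and 9.32 ± 2.12 in WT-CNV. Prss56 averaged 7.15 ± 1.51 FPKM in KO-CNV and 2.17 ± 1.04 FPKM in WT-CNV. Myrf averaged 0.923 ± 0.297 FPKM in KO-CNV and 0.344 ± 0.106 FPKM in WT-CNV (SD, n = 4 each throughout). Tmem98 transcript exceeded Myrf transcript by 15.3 to 23.3 times in KO-CNV and by 20.5 to 33.8 times in WT-CNV, and the groups overlapped. Tmem98 exceeded Prss56 by 1.67 to 3.27 times in KO-CNV and by 3.20 to 5.66 times in WT-CNV, again with an overlap, between KO-CNV 4 and WT-CNV 1. Transcript counts do not show how much MYRF was cut.

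The 3 genes did not follow the same libraries. KO-CNV 1 was the third highest library for Prss56, but the lowest KO-CNV library for Tmem98 and Myrf, within or next to the control levels. KO-CNV 4 was the lowest KO-CNV library for Prss56 and the second highest of all libraries for Myrf. The root-mean-square difference of the centred log2 CPM profiles over the 8 libraries was 0.40 between Tmem98 and Myrf, 0.57 between Prss56 and Myrf and 0.60 between Prss56 and Tmem98. On this measure 0 means the same profile. Among 13272 genes ordered by likeness to Prss56, Myrf took rank 55 and Tmem98 rank 75, whereas Myrf took rank 1318 by likeness to Tmem98, so the smallest difference did not go with the closest rank.

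**Figure D2:**
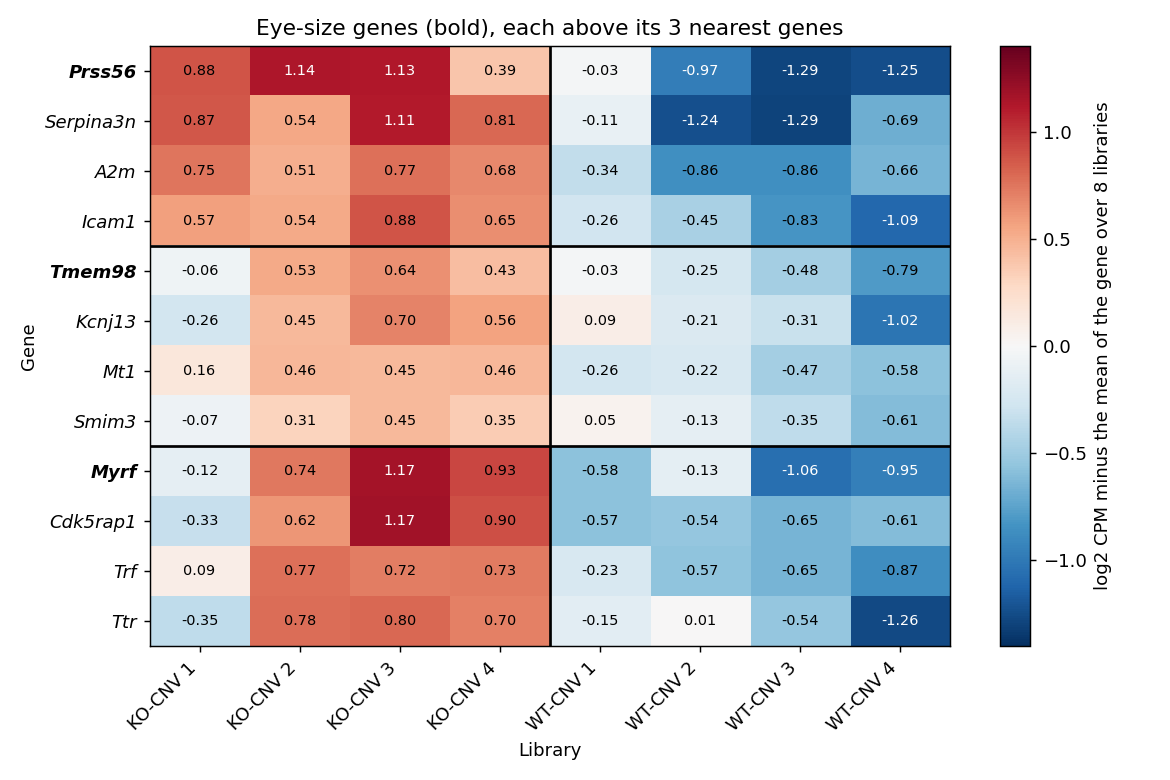
Profiles of the 3 measured eye-size genes, in bold, each above the 3 genes with the smallest root-mean-square difference, over 8 libraries (columns). Colour and numbers give log2 CPM minus the gene's mean. In KO-CNV 1, Prss56 is at 0.88 and A2m at 0.75, whereas Tmem98 is at -0.06, Myrf at -0.12 and Ttr at -0.35.

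The genes with the most similar profile, among 13272 genes with a mean of at least 1 CPM, were different for each member. They were picked for following a member that was itself chosen for being higher in KO-CNV, so their own differences between the groups are descriptions, with no test. For Prss56 they were Serpina3n, Icam1 and A2m, at root-mean-square differences of 0.34, 0.38 and 0.40. Serpina3n, a protease inhibitor of reactive glia, stood at 77.9, 61.9, 92.1 and 74.6 CPM in KO-CNV 1 to 4, and at 39.6, 18.1, 17.3 and 26.4 CPM in WT-CNV 1 to 4. Its highest control was WT-CNV 1, as for Prss56. The log2 fold change was 1.60 (SE 0.22) for Serpina3n, 1.35 (SE 0.13) for A2m, a plasma protease inhibitor, and 1.36 (SE 0.31) for Icam1, an adhesion molecule near 1 CPM.

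For Tmem98 the nearest profiles were those of Smim3, Kcnj13 and Mt1, at 0.14, 0.14 and 0.15. Kcnj13, a potassium channel of the pigment epithelium, stood at 3.90, 6.43, 7.64 and 6.95 CPM in KO-CNV 1 to 4, and at 4.99, 4.05, 3.76 and 2.28 CPM in WT-CNV 1 to 4. As with Tmem98, KO-CNV 1 fell among the controls and WT-CNV 1 was the highest control. The log2 fold change was 0.73 (SE 0.26) for Kcnj13, 0.52 (SE 0.23) for Smim3, a small membrane protein, and 0.77 (SE 0.11) for Mt1, a metal-binding metallothionein.

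For Myrf the nearest profiles were those of Cdk5rap1, Trf and Ttr, at 0.25, 0.31 and 0.32. Ttr, the thyroxine and retinol carrier made by the pigment epithelium, stood at 52.2, 115, 116 and 108 CPM in KO-CNV 1 to 4, and at 60.2, 67.1, 45.8 and 27.8 CPM in WT-CNV 1 to 4. KO-CNV 1 lay below WT-CNV 1 and 2 for Ttr. The log2 fold change was 1.16 (SE 0.16) for Trf, the iron carrier transferrin, and 1.29 (SE 0.24) for Cdk5rap1, which modifies transfer RNA. Cdk5rap1 ranged from 9.13 to 25.9 CPM in KO-CNV and from 7.27 to 7.89 CPM in WT-CNV. Since all profiles share the same 8 libraries, likeness here says nothing of shared control.

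Markers of the pigment epithelium were set beside the members, because Tmem98 and Myrf are active there. All 12 listed markers were detected and had positive log2 fold changes, with a median of 0.89, against -0.00 for all genes tested. Over the whole table, 1.20% of the genes tested were called higher. Of the 12, 1 rose and none fell (8 had an unadjusted p under 0.05, and DESeq2 called 4): Rgr, an opsin of pigment epithelium and Müller glia, at 90.1 ± 27.9 CPM in KO-CNV and 43.3 ± 12.9 CPM in WT-CNV (log2 fold change 1.06, SE 0.25, adjusted p = 0.0444). That call ended without KO-CNV 2, 3 or 4 or WT-CNV 1, 2 or 3, and without KO-CNV 1 or WT-CNV 4 there were 4 calls among the 12. Rpe65, the isomerase of the visual cycle, was at 21.3 ± 8.23 CPM in KO-CNV and 10.8 ± 3.35 CPM in WT-CNV (log2 fold change 0.98, adjusted p = 0.0973), and Ttr had a log2 fold change of 0.96 (adjusted p = 0.0735). Best1, a chloride channel of the pigment epithelium and itself a cause of small eyes in people, was barely detected, at 0.349 ± 0.136 CPM in KO-CNV and 0.239 ± 0.189 CPM in WT-CNV (log2 fold change 0.54, adjusted p = 0.642).

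The summed pigment epithelium markers reached 151, 331, 298 and 298 CPM in KO-CNV 1 to 4, and 171, 175, 136 and 80.6 CPM in WT-CNV 1 to 4. KO-CNV 1 sat within the controls and the other 3 KO-CNV libraries above them, the same split as for Tmem98. The largest parts of the sum were Ttr, at a mean of 98.0 CPM in KO-CNV and 50.3 CPM in WT-CNV, and Rgr, at 90.1 and 43.3 CPM. Ttr and Kcnj13 were also picked above as nearest profiles of members, so the sum is not independent of that choice. Per 1000 CPM of this sum, Tmem98 came to 89.1 ± 15.8 CPM in KO-CNV and 99.8 ± 17.5 CPM in WT-CNV, and Myrf to 20.2 ± 3.38 CPM in KO-CNV and 15.1 ± 4.11 CPM in WT-CNV (SD, n = 4 each). On that scale the groups overlapped for both genes, as they did for Prss56 (37.5 to 104 CPM in KO-CNV and 24.5 to 48.9 CPM in WT-CNV). More cells of a type and more RNA per cell cannot be told apart in bulk samples, and the part of the pigment epithelium share in the levels of Tmem98 and Myrf was not tested. Of the melanin synthesis genes none of 9 was called by edgeR, DESeq2 or limma-voom (1 had an unadjusted p under 0.05), the median was -0.31, and the sums were 41.0 to 90.1 CPM in KO-CNV and 37.3 to 158 CPM in WT-CNV, with WT-CNV 1 the highest. Without WT-CNV 1 the median turned to 0.18. Per 1000 CPM of the melanin sum, Prss56 came to 124 to 382 CPM in KO-CNV and 49.7 to 95.2 CPM in WT-CNV. Myrf came to 68.6 to 101 CPM in KO-CNV and 13.5 to 43.7 CPM in WT-CNV, so neither gene overlapped. Tmem98 did overlap, at 260 to 470 CPM in KO-CNV and 108 to 268 CPM in WT-CNV. How many of all genes do not overlap on this scale was not computed. The smallest p among them belonged to Oca2, a melanosome transporter, and Mlana, with log2 fold changes of 0.74 (adjusted p = 0.191) and -0.86 (adjusted p = 0.388).

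**Figure D3:**
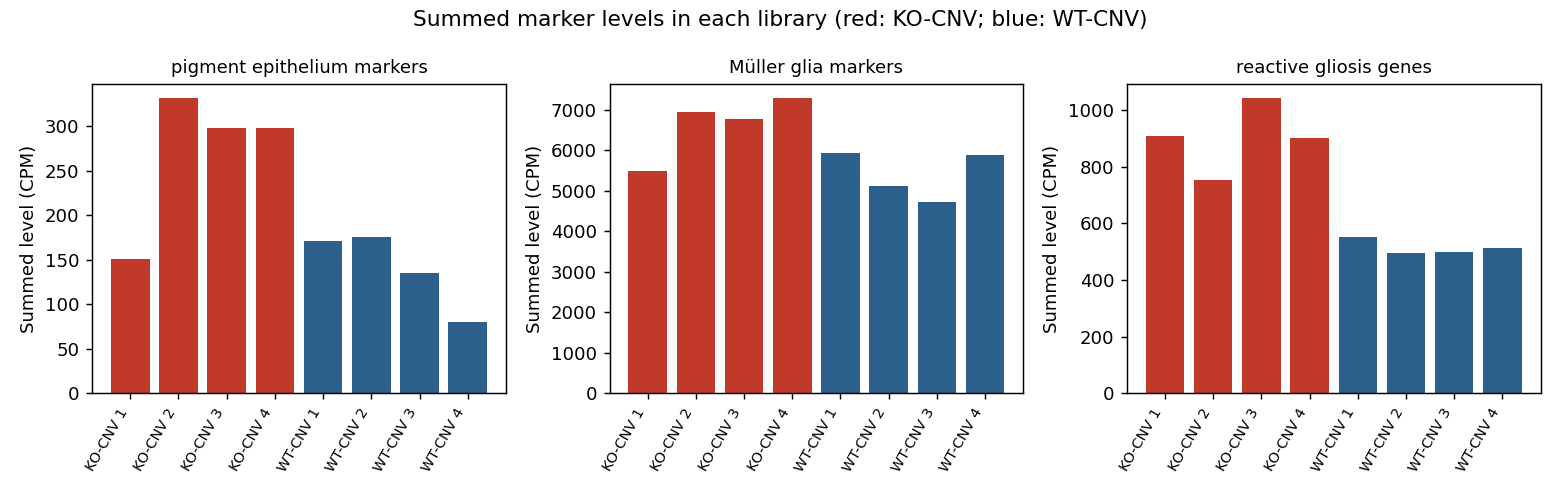
Summed CPM (vertical axis) of 12 pigment epithelium markers, 13 Müller glia markers and 15 reactive gliosis genes in each library, with KO-CNV in red and WT-CNV in blue. KO-CNV 1 has 151 CPM of pigment epithelium markers, within the WT-CNV range of 80.6 to 175 CPM, but 909 CPM of gliosis genes, above all WT-CNV libraries.

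Müller glia, the source of Prss56, were assessed by 13 identity markers, of which 2 rose and none fell, with a median log2 fold change of 0.35. Over the whole table, 1.20% of the genes tested were called higher and 1.35% lower. Clu, a secreted chaperone, rose by 0.83 (SE 0.14, adjusted p = 0.0091) and Crym, a thyroid hormone binder, by 0.71 (adjusted p = 0.0073). Glul, glutamine synthetase, was at 2506 ± 444 CPM in KO-CNV and 2315 ± 268 CPM in WT-CNV (log2 fold change 0.11, adjusted p = 0.665), and Rlbp1, a retinal carrier, had a log2 fold change of 0.03 (adjusted p = 0.917). The marker sums overlapped, at 5498 to 7282 CPM in KO-CNV and 4712 to 5934 CPM in WT-CNV. Per 1000 CPM of that sum, Prss56 came to 2.46 ± 0.618 CPM in KO-CNV and 0.896 ± 0.353 CPM in WT-CNV (SD, n = 4 each), and the groups did not overlap (1.54 to 2.85 against 0.605 to 1.41). Nor did they for Tmem98, at 3.04 to 4.01 CPM in KO-CNV and 1.70 to 2.87 CPM in WT-CNV, whereas for Myrf they did overlap on this scale. Unscaled, 11.0% of all genes tested did not overlap, and the share on this scale was not computed. Because the members were chosen for being higher in KO-CNV, nothing is read from their gap on this scale. Without WT-CNV 4, 7 of the 13 markers were called higher, and without the 3 lens-rich libraries none was, Clu and Crym included. DESeq2 called 6, and 7 had an unadjusted p under 0.05.

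Genes of reactive gliosis, the injury response of glia, are the list in which Serpina3n and A2m stand. Of 15 tested, 12 rose and none fell, with a median of 0.83, where 1.20% of all genes tested were called higher. Lcn2, an iron-binding acute-phase protein, rose by 2.52 (SE 0.30, adjusted p = 0.00129), Cebpd, a transcription factor, by 1.02 (adjusted p = 0.000601) and Osmr, a cytokine receptor, by 0.99 (adjusted p = 0.00177). Gfap was at 92.3 ± 10.5 CPM in KO-CNV and 76.1 ± 11.8 CPM in WT-CNV (log2 fold change 0.28, adjusted p = 0.208). The sums were 752 to 1041 CPM in KO-CNV and 495 to 553 CPM in WT-CNV and did not overlap. Per 1000 CPM of this sum, Prss56 came to 12.4 to 24.9 CPM in KO-CNV and 6.89 to 15.1 CPM in WT-CNV, which overlapped. The other 2 members overlapped on this scale as well. Tmem98 came to 26.0 ± 6.16 CPM in KO-CNV and 26.2 ± 5.14 CPM in WT-CNV (SD, n = 4 each). Myrf came to 3.23 to 7.17 CPM in KO-CNV and 3.01 to 5.91 CPM in WT-CNV. Microglia markers also moved, summing to 163 to 208 CPM in KO-CNV and 93.1 to 139 CPM in WT-CNV, and the part of Müller glia, gliosis and microglia in the Prss56 level was not tested. Serpina3n and A2m, both in the gliosis list, were also picked above as nearest profiles of Prss56. As the gliosis list was also put together with earlier results of these data known, neither its count nor its sum is independent evidence. Without KO-CNV 3 or WT-CNV 3 the count was 7, and without the 3 libraries rich in lens transcripts 3. In that last fit Lcn2 and Osmr lost their calls and Cebpd kept its own.

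**Figure D4:**
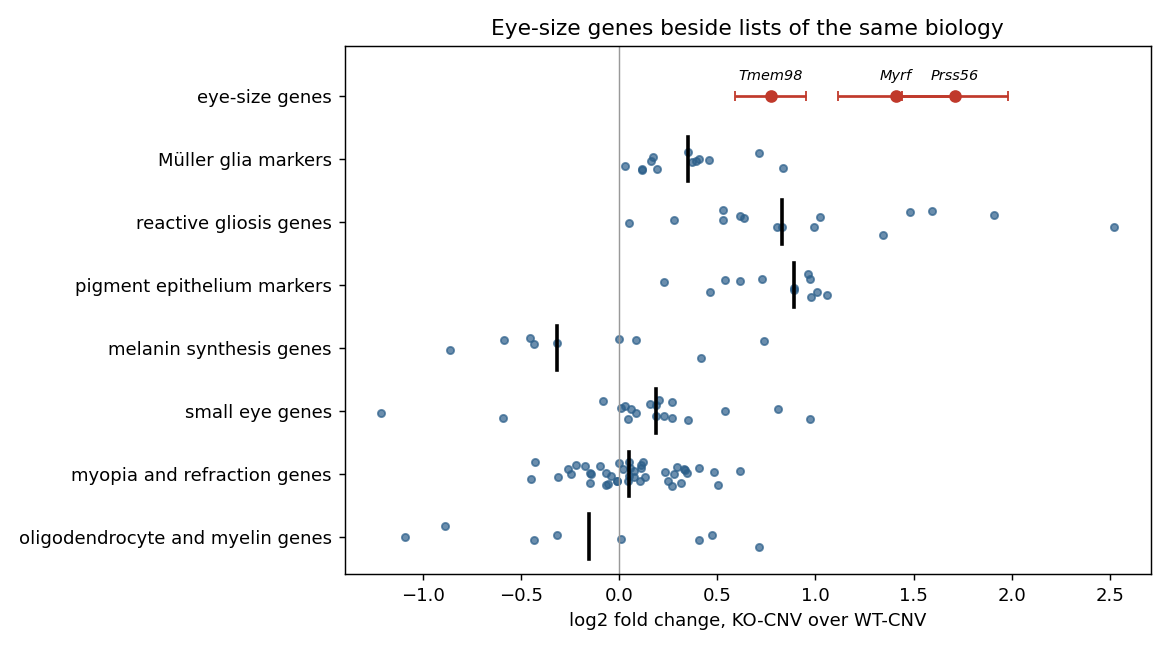
Log2 fold change, KO-CNV over WT-CNV (horizontal axis), of the 3 measured eye-size genes (red, ± SE) and of the tested genes of 7 lists (blue points; black line: median). Tmem98 (0.77) lies among the pigment epithelium and gliosis genes, and the medians of the small eye genes (0.19) and myopia genes (0.05) lie near 0.

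Of 19 other genes tested whose faults make small eyes in people, 1 fell and none rose, where 2.55% of all genes were called in either direction. The median was 0.19, 4 had an unadjusted p under 0.05, and DESeq2 called 3. Without WT-CNV 4, 4 were called higher. Crb1, the apical polarity protein of photoreceptors and Müller glia, fell by 1.21 (SE 0.09, adjusted p = 1.57e-05), to 199, 196, 190 and 201 CPM in KO-CNV 1 to 4, against 473, 400, 480 and 466 CPM in WT-CNV 1 to 4. Its groups lay far apart, and the call held in all 20 alternative fits, in the direction opposite to that of Prss56, Tmem98 and Myrf.

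At the opposite end of eye growth, 43 genes tied to myopia and refraction were tested. Of these 1 rose and 1 fell, with a median of 0.05, where 2.55% of all genes tested were called in either direction. Lrpap1, a chaperone of lipoprotein receptors, rose by 0.34 (SE 0.08, adjusted p = 0.0477) and Arr3, the cone arrestin, fell by 0.45 (SE 0.10, adjusted p = 0.0375). The Lrpap1 call ended without any library but WT-CNV 4, and the Arr3 call without KO-CNV 1, 3 or 4 or WT-CNV 1, 2 or 3. Without WT-CNV 4, 8 of the list were called higher.

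Genes of oligodendrocytes and of myelin, the latter switched on by MYRF in the central nervous system, held no gene called by edgeR. Of 15 listed, Olig2 had no row, and Mog, Mag, Mobp, Opalin, Fa2h and Olig1 had too few reads to be tested. None of the 8 tested was called by edgeR or limma-voom and 1 by DESeq2. Of these 8, 2 had an unadjusted p under 0.05, 4 were positive and the median was -0.15. MYRF activity was not tested. Mbp, myelin basic protein, was at 29.1 ± 2.12 CPM in KO-CNV and 28.9 ± 2.40 CPM in WT-CNV (log2 fold change 0.01, adjusted p = 0.966). Cnp, an enzyme of myelin membranes, was at 21.3 ± 1.30 CPM in KO-CNV and 16.05 ± 2.00 CPM in WT-CNV (log2 fold change 0.41, adjusted p = 0.0748). The sums lay between 63.9 and 74.0 CPM in KO-CNV and between 65.7 and 67.8 CPM in WT-CNV.

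The nearest tested neighbours of the members on the chromosome were not called. Ecel1 and Eif4e2, on either side of Prss56, had log2 fold changes of 0.67 (SE 0.48, adjusted p = 0.439) and 0.03 (SE 0.09, adjusted p = 0.881). Myo1d and Asic2, beside Tmem98, were at 0.45 (adjusted p = 0.245) and 0.55 (adjusted p = 0.165). Tmem258, whose end lies 447 bases from Myrf, was at 24.9 ± 1.43 CPM in KO-CNV and 23.7 ± 3.89 CPM in WT-CNV (log2 fold change 0.07, adjusted p = 0.754), and Dagla, on the other side, was at 0.36 (adjusted p = 0.331).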

How the data were processed

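The submitters' processing notes name HISAT2, HTSeq, fastp and, as genome build, mm10; the sources used here give no versions, annotation or strand setting. The deposited count table holds whole read counts per gene, and the deposited FPKM table the authors' counts scaled to library total and 1 length per gene. Counts were fitted with edgeR 4.0.16 in R 4.3.3 (TMM, filterByExpr with minimum count 10 and total 15, quasi-likelihood test, no covariate, two-sided, Benjamini-Hochberg over 16861 genes, threshold 0.05). The SE is the absolute log2 fold change over the square root of F. Profiles used log2 CPM with a prior count of 2. The members, the lists and the rules for named genes were chosen with earlier results of these data known. Named genes were the members, Cd274, up to 4 called genes per list (or the 2 of smallest p), 11 fixed genes, the 3 nearest profiles (predicted genes left out) and the nearest tested neighbours; some of these are not reported here. Alternatives used RLE, upper quartile or total scaling, other filters, robust dispersions, DESeq2 1.42.0, limma 3.58.1 (voom, and log2 of FPKM plus 1 or 0.1), the title number as a block, and left-out libraries. Errors cover 4 libraries a group and no PCR duplicates.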

Additional observations from a re-analysis of the deposited data

Results flagged for a closer look

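In 140 groups of 4 libraries, 11 had a highest or lowest library whose gap to the next exceeded the limit of Dixon's outlier test; chance flags about 1 group in 20. Among the eye-size genes this was Prss56 in WT-CNV 1, at 3.71 FPKM against 1.51 to 1.87 FPKM in the other controls; in CPM its gap stayed just under the limit. In KO-CNV 1, 3 genes with profiles near those of Tmem98 or Myrf stood low: Ttr at 52.2 CPM, where KO-CNV 2 to 4 had 108 to 116 CPM, Trf at 208 CPM against 321 to 334 CPM, and Mt1 at 53.5 CPM against 65.6 to 66.1 CPM. In KO-CNV 3, the summed lens markers were at 2334 CPM against 2.83 to 25.7 CPM, with Bfsp1 at 40.7 CPM against 0.0848 to 0.886 CPM and Crybb1 at 50.5 CPM against 0.594 to 1.83 CPM. WT-CNV 4 was apart for Crym, at 50.7 CPM against 66.5 to 69.2 CPM, and for Gnat1, at 10241 CPM against 7383 to 7609 CPM. Cnp stood at 19.0 CPM in WT-CNV 1 against 14.8 to 15.3 CPM, and Fads1 at 77.1 CPM in KO-CNV 2 against 67.1 to 68.3 CPM.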

How the results depend on the processing

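Prss56, Tmem98 and Myrf had positive log2 fold changes under all 20 alternatives, at 1.36 to 2.09, 0.65 to 0.90 and 0.51 to 1.64. The value of 0.51 for Myrf came with log2(FPKM + 1), where the added 1 exceeds most of its FPKM values. The number of genes called was 430, and 690 with no filter on low counts, 1392 with DESeq2, 228 with log2(FPKM + 1), 15 without the 3 libraries rich in lens transcripts and 108 to 3209 when 1 library was left out. With the title number as a replicate block it was 228; Tmem98, Myrf, Rgr, Lrpap1, Icam1 and C1qc lost their calls, Prss56 kept its own, and same-numbered libraries deviated together with correlations of -0.04 to 0.21, so the numbers were not taken as pairs. Without the lens-rich libraries the list medians were 0.18 for Müller glia, 0.039 for small eye genes, 0.26 for the C1q and TNF related family and -0.092 for myopia genes (turned round). When 1 library was left out they ranged from 0.028 to 0.19 for the C1q and TNF related family and from -7.12 to 0.090 for lens markers. Leaving out 1 library also changed the sign of the median for melanin genes (-0.57 to 0.18), ciliary body and iris markers (-0.096 to 0.21) and myopia genes (-0.039 to 0.12). Calls were also lost for Tmem98, Myrf and Cdk5rap1 with log2(FPKM + 1), Myrf with log2(FPKM + 0.1), Rgr with both and with robust dispersions, Arr3 with both and with library totals only, and Lrpap1 with no filter. The cause of these moves was not tested. The members were chosen on this contrast, and Icam1 and Cdk5rap1 for following them. Calls of these genes, kept or lost, are therefore no support for a difference. Levels under 1 CPM, such as Best1, rest on few reads.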

Other observations

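Genes that work beside the eye-size genes were called in few cases. Adipor1, the receptor that with MFRP supports the supply of the fatty acid DHA, was at 650 ± 81.9 CPM in KO-CNV and 626 ± 65.3 CPM in WT-CNV (log2 fold change 0.05, adjusted p = 0.808, edgeR). None of the 8 DHA supply genes was called by edgeR, 1 by DESeq2, and 1 had an unadjusted p under 0.05; the smallest p belonged to the desaturase genes Fads2 and Fads1, at 0.35 (adjusted p = 0.0968) and 0.19 (adjusted p = 0.249). Of the relatives and receptors of C1QTNF5, none of 8 tested was called by edgeR or DESeq2 (1 had an unadjusted p under 0.05), with Cdh13 at 0.78 (adjusted p = 0.145) and C1qtnf1 at 0.63 (adjusted p = 0.263). Among frizzled-related and other Wnt inhibitors none of 6 tested was called by edgeR and 1 by DESeq2 (2 had an unadjusted p under 0.05), with Dkk3 at 0.39 (adjusted p = 0.0801) and Sfrp2 at 1.35 (adjusted p = 0.181). Sfrp2 was barely detected, at 0.553 ± 0.157 CPM in KO-CNV and 0.214 ± 0.143 CPM in WT-CNV.

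Microglia markers were higher in KO-CNV: 6 of 10 rose, none fell and the median was 0.87, with summed levels of 163 to 208 CPM in KO-CNV and 93.1 to 139 CPM in WT-CNV. Over the whole table, 1.20% of the genes tested were called higher. C1qa, Csf1r, C1qb and C1qc rose by 1.20, 1.03, 0.94 and 1.08; without the lens-rich libraries none of the 10 was called, without KO-CNV 3 or 4 or WT-CNV 2 or 3 the count was 3, and C1qc lost its call in the same 4 fits. Among markers of ciliary body and iris, choroid and sclera, and lens, edgeR and DESeq2 called none, and 0, 1 and 0 had an unadjusted p under 0.05. The medians were 0.02 for 5 ciliary body and iris markers (Wfdc1 at 0.20, adjusted p = 0.601; Zic1 at 0.10, adjusted p = 0.812), -0.29 for 8 stroma markers of choroid and sclera (Dcn at -0.91, adjusted p = 0.17; Col3a1 at -0.49, adjusted p = 0.27) and -1.54 for 9 lens markers (Bfsp1 at -1.98, adjusted p = 0.454; Crybb1 at -1.66, adjusted p = 0.515). None of 8 rod markers was called by edgeR and 1 by DESeq2, with 1 at an unadjusted p under 0.05 (median 0.09; Sag at 0.39, adjusted p = 0.126; Gnat1 at 0.24, adjusted p = 0.396).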
